A study of Homo sapiens with 30 samples.

Results

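Nascent transcription after 3 h of dexamethasone (Dex) was compared with that after 15 min of Dex in A549. This is a line grown from a human lung adenocarcinoma, with features of alveolar epithelium. The comparison takes the 2 Dex 3 h libraries against the 2 Dex 15 min libraries, which are 4 of the 30 libraries of the series. Of the 58780 genes in the count table, 22919 had enough counts to be tested. The question was which responses present at 15 min had faded, held or grown by 3 h, and which genes responded late. The assay was PRO-seq (precision run-on sequencing), in which RNA polymerases engaged on DNA add a biotin-tagged nucleotide, so that the reads come from RNA being made and not from stored mRNA. The groups used were untreated cells, cells given 100 nM Dex for 15 min or for 3 h, and cells kept for 7 days in 1 µM GSK591 (which inhibits PRMT5, an enzyme that methylates arginines) or in 1 µM MS023 (which inhibits the Type I enzymes of that family) before Dex for 15 min or 3 h. All groups, the untreated one included, received DMSO as vehicle, and each holds 2 libraries. The untreated cells carry a 15 min label and untreated cells at 3 h were not analysed here, so at 3 h the length of the Dex treatment and the time in culture cannot be told apart.

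Dex binds the glucocorticoid receptor (NR3C1), which then moves into the nucleus and acts on DNA directly or through other transcription factors. It is known for raising anti-inflammatory feedback genes such as TSC22D3, DUSP1, ZFP36, NFKBIA and FKBP5, and for lowering chemokines and other genes driven by NF-kB and AP-1. Some targets respond to the receptor itself, while others follow the proteins that the first targets encode.

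The 6 libraries of untreated, Dex 15 min and Dex 3 h cells held 8995811 to 13069598 counts. Mitochondrial genes took 69.2% to 76% of these. With ribosomal RNA genes and nuclear copies of mitochondrial genes also set aside for this count, nuclear genes held 2387829 to 2761030 counts. The replicates of a group correlated across genes with Pearson's r of 0.974 to 0.98 on log2 values; genes are not independent replicates. All 12 markers of epithelial, NRF2-high A549 cells averaged above 1 CPM (counts scaled to the library total) over the 6 libraries, with as few as 9 counts of EPCAM and 10 of CDH1 in a library, and CDKN2A, which A549 is known to have lost, held 1 count in the 6 libraries together. Endothelial markers summed to at most 1.33 CPM, fibroblast markers to 4.20 to 5.94 CPM and leukocyte markers to 11.4 to 17.9 CPM, with EMCN and LYZ at 0 in all 6 libraries. Alveolar type II markers summed to 16.2 to 20.4 CPM before 3 h and to 27.2 and 30.6 CPM at 3 h, and their part in the results below was not tested. In such bulk libraries a change in the number of cells of a type and in RNA per cell cannot be told apart.

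Between 15 min and 3 h, 2467 of the 22919 genes were called (10.8%), which means an adjusted p under 0.05 in edgeR's quasi-likelihood test with Benjamini-Hochberg adjustment. Of these, 1428 were higher at 3 h (6.23%) and 1039 lower (4.53%). The 2 libraries at 3 h both lay above or both below the 2 at 15 min for 12083 genes (52.7%), so a lack of overlap alone was common. Against untreated cells, 289 genes were called at 15 min (1.26%; 220 higher, 0.96%, and 69 lower, 0.301%). At 3 h against untreated cells the call covered 2410 genes (10.5%; 1400 higher, 6.11%, and 1010 lower, 4.41%). The median log2 fold change of all genes between the times was -0.00497 on the composition-adjusted (TMM) scale used here; with the total count as the only scaling it was -0.16, and 807 genes were called, 278 higher and 529 lower. Changes below are relative to the TMM scale, where 419 of the 1428 higher genes and 257 of the 1039 lower genes were called in all 4 fits that leave out 1 of the 4 libraries.

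The 289 genes called at 15 min, here called early, were sorted by what happened next. For 61 (21.1%) the response faded, which means that they were also called between the times in the opposite direction: 34 had risen at 15 min and 27 had fallen. For 65 (22.5%) it grew, with a second call in the same direction (53 higher, 12 lower). For 130 (45%) it held: no call between the times and a call at 3 h against untreated cells in the original direction (112 higher, 18 lower). The other 33 (11.4%) met none of these definitions. A further 803 genes were late and higher, and 610 late and lower, which means no call at 15 min and a call in the same direction both between the times and at 3 h against untreated cells. The remaining 928 genes called between the times (545 higher, 383 lower) reached no call against untreated cells in that direction. The late genes, by definition not called at 15 min, had a median log2 fold change there of 0.02 for those later higher and -0.02 for those later lower, and 300 and 245 of them moved at least 2-fold between the times. At 15 min, 538 of the 803 and 491 of the 610 had changed by less than 0.25 on the log2 scale. In 59 and 34 the unadjusted p of the edgeR test at 15 min was already under 0.05 in the same direction. These classes reuse the same 6 libraries, so a gene whose 15 min libraries read high by chance is more easily classed as faded.

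**Figure D1:**
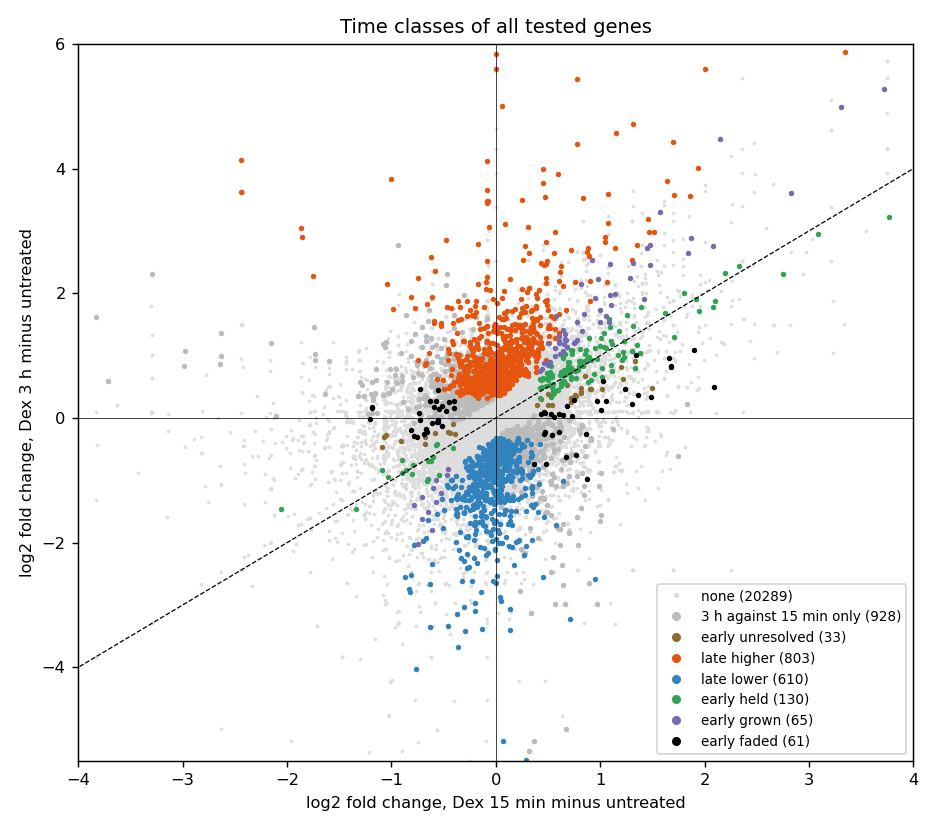
Log2 fold change at 15 min (x axis) and at 3 h (y axis), both against untreated cells, 1 point per tested gene and coloured by class; the dashed line marks equal change, and 53 genes lie outside the axes. Faded genes lie between the line and the level of untreated cells or beyond that level, grown genes lie past the line away from it, and the 803 late higher and 610 late lower genes lie above and below 0 near the middle of the x axis.

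Cells pretreated with GSK591 or MS023 were sampled at the same 2 times in libraries outside the contrasts that set the classes. These libraries did enter the common fit, and so its gene filter, scaling and estimate of the spread. Of the 1428 genes higher at 3 h, 1361 were also above 0 after GSK591 (95.3%) and 1343 after MS023 (94%), and 817 and 834 were called higher there. Of the 1039 lower genes, 962 (92.6%) and 974 (93.7%) were below 0, and 544 and 507 were called lower. Over all genes tested the sign matched in 68.7% and 67.1%. The calls between the times over all genes were 3259 after GSK591 (14.2%; 1844 higher, 8.05%, and 1415 lower, 6.17%) and 2949 after MS023 (12.9%; 1661 higher, 7.25%, and 1288 lower, 5.62%).

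The direction of the faded, grown and late classes was compared in the same libraries. Of the 34 early higher genes that faded, 32 were below 0 between the times after GSK591, 25 of them called, and all 34 after MS023, 21 of them called. All 27 early lower genes that faded were above 0 in both, with 23 and 22 called. Of the 53 that grew upwards, 52 were above 0 in both, with 36 and 44 called, and all 12 that grew downwards were below 0, with 11 and 10 called. By definition the held genes had no call between the times, so their sign there tells little about the class. For the 112 early higher genes that held, the sign matched for 69 (61.6%) and 73 (65.2%), against 68.7% and 67.1% of all genes. Of these 112 genes, 18 and 32 were called in the matching direction and 6 and 8 in the opposite one. For the 18 early lower genes that held, the sign matched for 13 and 12, and 3 were called in the matching direction and 1 in the opposite one after each inhibitor. Over all genes, 13.2% and 12% were called with the same sign after GSK591 and MS023. Of the late genes, 539 and 542 of the 803 higher ones and 381 and 350 of the 610 lower ones were called in the same direction. The time contrast itself differed from that in cells without inhibitor for 7 genes with GSK591 (0.0305%; 3 more positive, 0.0131%, and 4 more negative, 0.0175%) and for 8 with MS023 (0.0349%; 4 each way, 0.0175% each), while 1866 and 1797 genes had an unadjusted p under 0.05.

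**Figure D2:**
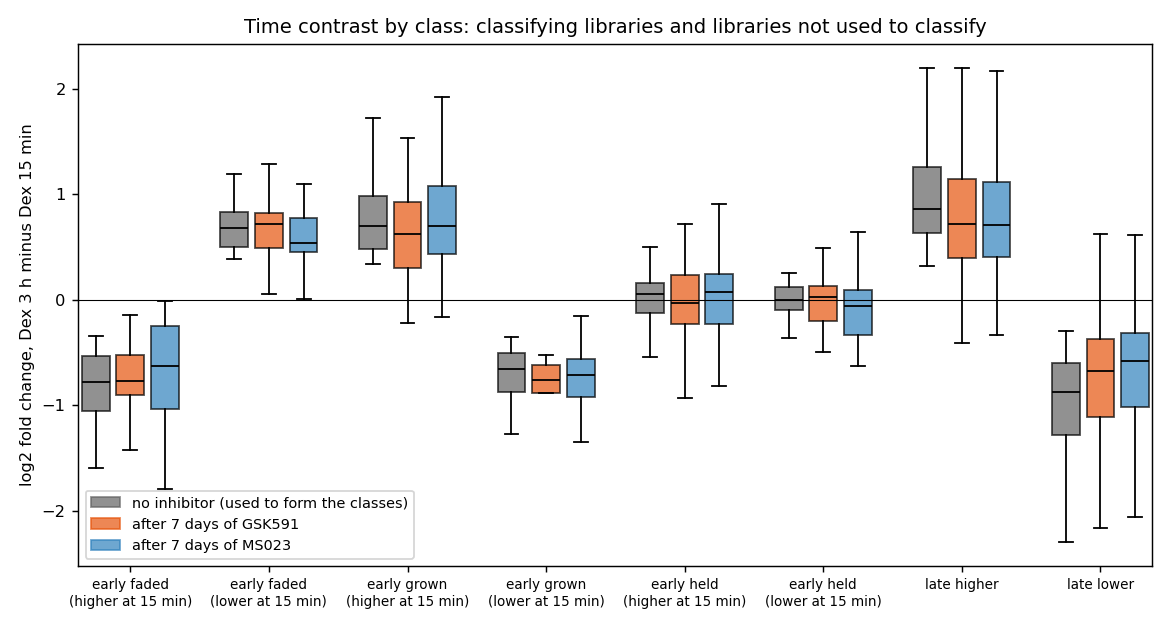
Log2 fold change from Dex 15 min to Dex 3 h by class, without inhibitor and after 7 days of GSK591 or MS023; boxes give the median and quartiles over the genes of a class. The boxes without inhibitor come from the libraries whose contrasts set the classes. The other boxes come from libraries outside those contrasts, which shared the common fit. The median of the late higher class is 0.85 without inhibitor, 0.72 after GSK591 and 0.70 after MS023.

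Among the early higher genes that faded were transcription factors, a chemokine and feedback inhibitors of signalling. KLF6, a zinc-finger transcription factor (chromosome 10, 3775996 to 3785281, hg38), stood at 57.7 and 61.9 CPM in the 2 untreated libraries, 194 and 189 CPM at 15 min and 109 and 102 CPM at 3 h. The 3 h libraries lay between the other pairs and overlapped neither, and the naming rule required no overlap with the 15 min pair. The log2 fold change between the times was -0.86 ± 0.105 (SE; adjusted p = 2.54e-08), and KLF6 was still called higher than in untreated cells at 3 h. TNFAIP3, which encodes the A20 inhibitor of NF-kB signalling, went from 4.45 and 5.04 CPM to 13.7 and 12.9 CPM and back to 4.68 and 7.45 CPM. Its 3 h libraries were apart from each other but below both 15 min libraries, the log2 fold change was -1.15 ± 0.226 (adjusted p = 0.000281), and without Dex 3 h replicate 1 the adjusted p was 0.0543. After GSK591 and MS023 the log2 fold change of TNFAIP3 between the times was 0.05 and -0.24, and neither difference from the value without inhibitor passed the test.

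PRDM1 (the repressor BLIMP1) ended below its starting level. It measured 6.56 and 7.46 CPM in untreated cells, 13.6 and 12.1 CPM at 15 min and 2.87 and 4.27 CPM at 3 h, with no overlap between the 3 groups. The log2 fold change was -1.86 ± 0.217 between the times (adjusted p = 8.96e-09), and -1.57 and -1.80 after GSK591 and MS023. DUSP4, a phosphatase that inactivates MAP kinases, had 177 and 201 CPM, then 245 and 243 CPM (adjusted p = 0.0494 at 15 min), then 108 and 119 CPM. Of the 34 early higher genes that faded, 5 were called lower at 3 h than in untreated cells, among them PRDM1, DUSP4, CHMP1B and LINC01348, while 6 were still called higher and 23 were not called.

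CXCL2, MYC and ETS2 rose at 15 min, fell again and were not called against untreated cells at 3 h. CXCL2, a neutrophil chemokine, went from 16.3 and 17.9 CPM to 30.9 and 31.6 CPM and down to 13.4 and 15.3 CPM, a log2 fold change of -1.13 ± 0.153 between the times (adjusted p = 3.43e-07). MYC, a growth-promoting transcription factor, measured 93.3 and 88.8 CPM, 117 and 136 CPM, then 76.4 and 78.6 CPM. ETS2, an ETS-family transcription factor, measured 30.6 and 27.8 CPM, 45.7 and 47.7 CPM, then 30.9 and 35.5 CPM, and its fall lost the call without Dex 3 h replicate 1 (adjusted p = 0.129) or Dex 15 min replicate 2 (0.067). For CXCL2 and MYC the 3 h libraries lay below both untreated libraries, and for ETS2 they lay above them (adjusted p at 3 h against untreated cells 0.349, 0.218 and 0.414 in that order). The authors' deposited table for 3 h lists CXCL2 (log2 fold change -0.764, adjusted p = 0.00234) and MYC (-0.637, adjusted p = 6.74e-07) as lower than in untreated cells. It does not call ETS2 (adjusted p = 0.996).

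The 27 early lower genes that faded had dipped at 15 min and recovered. AJUBA, a LIM-domain protein of cell junctions and the Hippo pathway, dropped from 56.7 and 58.6 CPM to 27.2 and 23.5 CPM and stood at 65.6 and 64.2 CPM at 3 h. The 15 min libraries were the lowest of the 6 by a wide margin, the log2 fold change between the times was 1.35 ± 0.123 (adjusted p = 7.97e-12), and it was 0.88 and 1.09 after GSK591 and MS023. FASN, the fatty acid synthase, measured 97.2 and 98.9 CPM, 73.5 and 74.8 CPM, then 110 and 128 CPM. SERTAD3, a small transcriptional coregulator, measured 17.5 and 19.4 CPM, 10.3 and 12.1 CPM, then 25.7 and 25.4 CPM. At 3 h, 2 of the 27 genes were called higher than in untreated cells, SERTAD3 among them, 25 were not called, and none was still called lower. An annotated gene on the opposite strand overlaps exons of SERTAD3, CHMP1B and TNFAIP3, and without a stated strand setting reads from the 2 strands cannot be told apart.

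**Figure D3:**
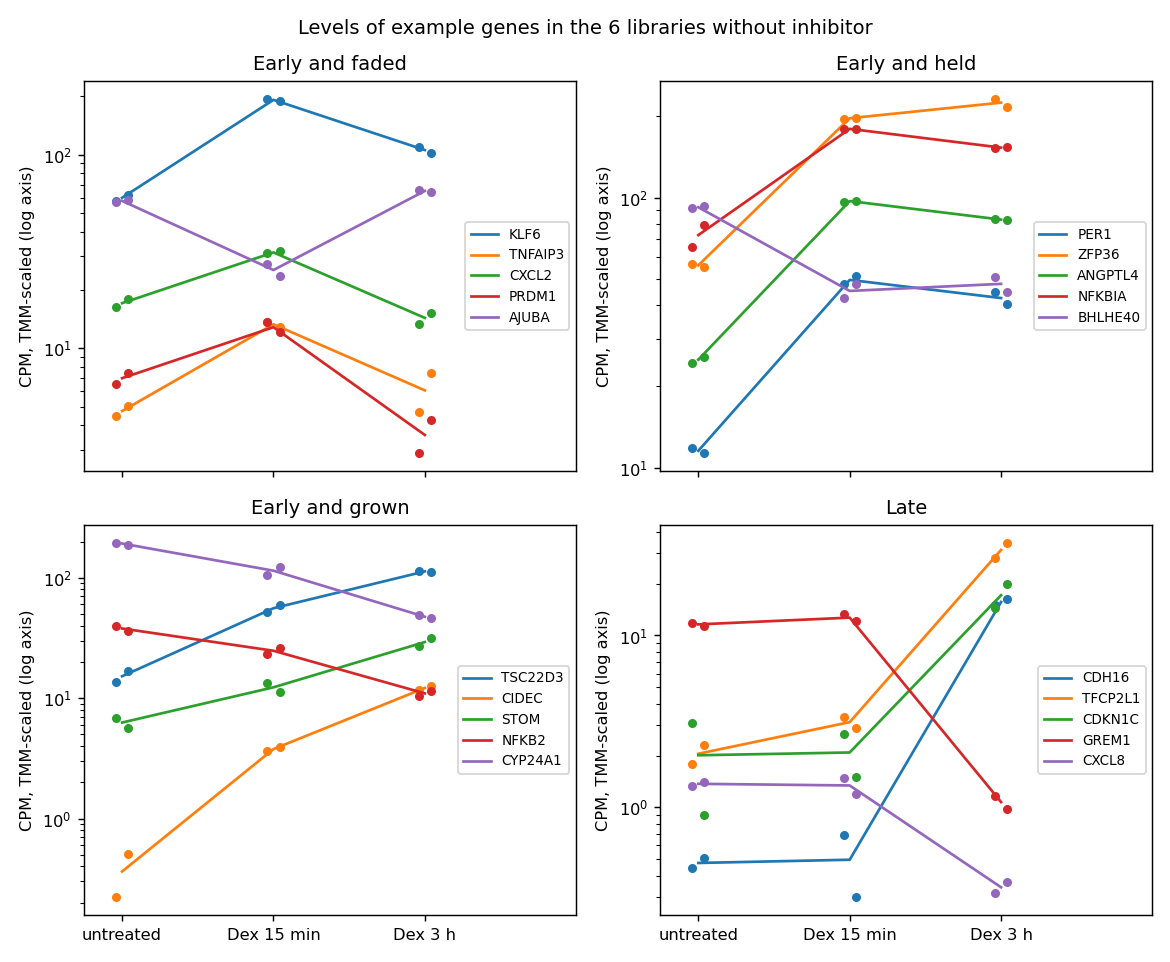
CPM on a log axis in untreated, Dex 15 min and Dex 3 h cells for 5 genes of each kind (faded, held, grown, late); points are libraries and lines join the means of the 2 libraries. KLF6, TNFAIP3, CXCL2 and PRDM1 peak at 15 min and AJUBA has its lowest point there. PER1 is slightly lower and ZFP36 slightly higher at 3 h than at 15 min, without a call. TSC22D3 and CIDEC climb on, and CDH16 and GREM1 move only after 15 min.

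For the held genes, most of the change from untreated cells was present at 15 min, and no difference between the times was called. PER1, a circadian clock repressor, rose from 11.8 and 11.3 CPM to 47.9 and 51.2 CPM (log2 fold change 2.10, adjusted p = 7.71e-16) and measured 44.6 and 40.3 CPM at 3 h. ZFP36, whose protein destabilises cytokine mRNAs, went from 56.8 and 55.4 CPM to 196 and 197 CPM and stood at 232 and 217 CPM. ANGPTL4, a secreted lipase inhibitor, went from 24.5 and 25.7 CPM to 96.6 and 97.4 CPM and stood at 83.4 and 82.3 CPM. In these genes the libraries of the 2 times did not overlap, but the log2 fold changes between them were small: -0.22 ± 0.127 for PER1 (adjusted p = 0.293), 0.19 for ZFP36 (0.277) and -0.23 for ANGPTL4 (0.195).

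NFKBIA, the NF-kB inhibitor IkB-alpha, measured 65.8 and 79.4 CPM, then 180 and 179 CPM, then 152 and 154 CPM. DUSP1, a MAP kinase phosphatase, measured 205 and 224 CPM, 442 and 419 CPM, then 527 and 517 CPM. MT2A, a metal-binding metallothionein with close paralogs, measured 13.1 and 10.9 CPM, 34.5 and 39.4 CPM, then 42.8 and 34.2 CPM. Between the times NFKBIA was at -0.23 (adjusted p = 0.157) and DUSP1 at 0.28 (adjusted p = 0.0908), with no overlap of libraries in either, and the MT2A libraries overlapped. Among the 18 early lower genes that held, BHLHE40, a circadian transcriptional repressor, dropped from 91.4 and 92.7 CPM to 42.3 and 47.9 CPM and remained at 51.0 and 44.8 CPM. IER2, an immediate early gene, dropped from 41.2 and 40.3 CPM to 17.9 and 20.3 CPM and measured 23.3 and 22.2 CPM at 3 h. For BHLHE40 the 15 min and 3 h libraries overlapped, and for IER2 the 3 h libraries were slightly higher (log2 fold change 0.25, adjusted p = 0.241).

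Among the early responses that grew was TSC22D3, which encodes GILZ, a glucocorticoid-induced repressor of inflammatory signalling. It measured 13.5 and 16.9 CPM in untreated cells, 52.2 and 59.5 CPM at 15 min and 114 and 112 CPM at 3 h. The 3 groups did not overlap, the log2 fold change between the times was 1.01 ± 0.118 (adjusted p = 8.66e-09), and it was 0.92 and 0.76 after GSK591 and MS023. SGK1, a kinase that raises epithelial sodium transport, rose from 24.1 and 28.2 CPM to 40.3 and 37.5 CPM and then to 56.4 and 58.0 CPM, with 0.56 ± 0.118 between the times (adjusted p = 0.00079). CEBPB, a transcription factor, rose from 35 and 32.1 CPM to 76.2 and 68.0 CPM and then to 112 and 124 CPM. CDKN1A, the cell cycle inhibitor p21, rose from 10.3 and 11.1 CPM to 21.1 and 21.7 CPM and measured 31.5 and 30.6 CPM at 3 h; its second step lost the call without Dex 3 h replicate 1 (adjusted p = 0.0559) or Dex 15 min replicate 1 (0.0662).

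Several grown genes had a larger second step. CKB, the brain-type creatine kinase, measured 16.0 and 15.7 CPM, then 30.4 and 25.6 CPM, then 64.0 and 77.7 CPM, and its log2 fold change was 0.82 at 15 min and 1.34 ± 0.12 between the times (adjusted p = 6.96e-12). JPH2, a junctophilin that ties the plasma membrane to the endoplasmic reticulum, measured 3.89 and 4.63 CPM, 8.39 and 7.80 CPM, then 25.8 and 23.6 CPM. CIDEC, a lipid droplet protein, went from 2 and 5 counts without Dex to 37 and 39 at 15 min and 110 and 103 at 3 h, a log2 fold change of 1.68 ± 0.244 between the times. By the naming rule, both 3 h libraries had to lie above both 15 min libraries in all 3 genes. The 15 min libraries also lay above both untreated ones. The authors' deposited table for 15 min lists CKB (adjusted p = 9.8e-17) and CIDEC (1.77e-14) as higher. It does not call JPH2 (log2 fold change 0.348, adjusted p = 0.0798).

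The 12 early responses that grew downwards included a vitamin D enzyme and an NF-kB subunit. CYP24A1, which breaks down vitamin D, fell from 196 and 189 CPM to 105 and 124 CPM and on to 48.7 and 46.2 CPM (log2 fold change -1.27 ± 0.133 between the times, adjusted p = 7.2e-09). NFKB2 fell from 39.4 and 36.4 CPM to 23.3 and 26.2 CPM and on to 10.5 and 11.4 CPM (-1.18 ± 0.145, adjusted p = 3.5e-08). PLAUR, the urokinase receptor, measured 19.7 and 17.0 CPM, 11.5 and 13.1 CPM, then 7.33 and 7.08 CPM, and its adjusted p between the times was 0.0506 without Dex 15 min replicate 2. None of the 3 groups overlapped for any of these genes. For NFKB2 the second step was -0.88 after GSK591 and -0.15 after MS023.

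The late higher gene with the largest change by the naming rule was CDH16, an epithelial cadherin first described in kidney (chromosome 16, 66908122 to 66918984). Its counts were 4 and 5 without Dex, 7 and 3 at 15 min, and 142 and 133 at 3 h, or 15.1 and 16.2 CPM. The log2 fold change between the times was 4.94 ± 0.306 (adjusted p = 1.47e-17), and it was 4.26 and 3.98 after GSK591 and MS023. TFCP2L1, an epithelial transcription factor, measured 1.78 and 2.32 CPM in untreated cells, 3.36 and 2.9 CPM at 15 min and 28.2 and 34.7 CPM at 3 h (3.32 ± 0.185, adjusted p = 8.23e-19). GSN, the actin-severing protein gelsolin, measured 8.79 and 7.15 CPM, 10.5 and 11.8 CPM, then 58.5 and 54.3 CPM (2.34 ± 0.136, adjusted p = 2.36e-18). In each gene the 3 h libraries stood far above the other 4, and none was called at 15 min in the fit used here. The authors' deposited table for 15 min lists TFCP2L1 (log2 fold change 0.755, adjusted p = 0.000312) and GSN (0.438, adjusted p = 0.00707) as higher. It does not call CDH16 (adjusted p = 0.921).

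CDKN1C, the cell cycle inhibitor p57, measured 3.11 and 0.907 CPM in untreated cells, 2.67 and 1.5 CPM at 15 min and 14.4 and 19.9 CPM at 3 h. RRAD, a Ras-related GTPase, measured 1.45 and 2.32 CPM, 1.78 and 1.60 CPM, then 12.2 and 14.3 CPM. ARRB1, the adaptor beta-arrestin 1, measured 3.34 and 1.51 CPM, 1.09 and 2.10 CPM, then 13.6 and 11.0 CPM. The untreated and 15 min libraries overlapped in these genes, and only the 3 h pair was apart, with log2 fold changes between the times of 3.02 ± 0.328, 2.96 ± 0.255 and 2.95 ± 0.272. The authors' deposited table for 15 min nevertheless lists ARRB1 as higher (log2 fold change 0.783, adjusted p = 4.29e-08). It calls neither CDKN1C (adjusted p = 0.998) nor RRAD (0.991). ANPEP, a cell surface aminopeptidase, ABCC8, a subunit of potassium channels, and GPR153, an orphan receptor, were also late and higher, with log2 fold changes of 2.41, 2.33 and 2.76. AP001972.5, an annotated transcript of unknown coding status 1.72 kb from ARRB1 on the same strand, measured 2.56 and 2.82 CPM, 2.37 and 2.80 CPM, then 24.1 and 21.0 CPM (log2 fold change 3.12). RRAD lies 2.69 kb from CDH16, and GSN lies 6.14 kb from the grown gene STOM, which measured 6.90 and 5.64 CPM, 13.3 and 11.3 CPM, then 26.9 and 31.6 CPM.

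FKBP5, a chaperone that dampens the glucocorticoid receptor, was late by the definition used here. It measured 5.56 and 5.24 CPM in untreated cells, 9.48 and 12.8 CPM at 15 min and 40.5 and 40.1 CPM at 3 h. The 15 min libraries lay above the untreated ones without reaching a call (log2 fold change 1.04, adjusted p = 0.12), and the change between the times was 1.85 ± 0.235 (adjusted p = 1.54e-05). In the authors' deposited table for 15 min, FKBP5 has a log2 fold change of 1.54 with an adjusted p of 5.11e-34. How that table was counted is not given in the sources used here. The receptor gene NR3C1 itself measured 47.8 and 49.6 CPM, 44.5 and 47.2 CPM, then 34.8 and 41.8 CPM. Its 3 h libraries were the lowest, with -0.26 ± 0.114 between the times (adjusted p = 0.137) and -0.35 at 3 h against untreated cells (adjusted p = 0.0365).

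The gap between the count table and the authors' table varied with gene length among the late higher genes. Of those protein-coding genes under 30 kb, 14 of 358 (3.91%) are listed as higher at 15 min in the authors' deposited table, against 2.08% of all tested protein-coding genes of that length. From 30 to 100 kb the count in the authors' deposited table was 22 of 137 (16.1%, against 3.39%), and above 100 kb it was 25 of 78 (32.1%, against 4.27%). FKBP5 spans 155 kb. Among protein-coding genes the median length was 18.2 kb for the late higher genes, 31.2 kb for all tested genes and 40.1 kb for the late lower genes. As a share of tested protein-coding genes, the late higher class held 5.85% of those under 30 kb and 3.2% of those over 100 kb, and the late lower class 2.58% and 4.91%.

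**Figure D4:**
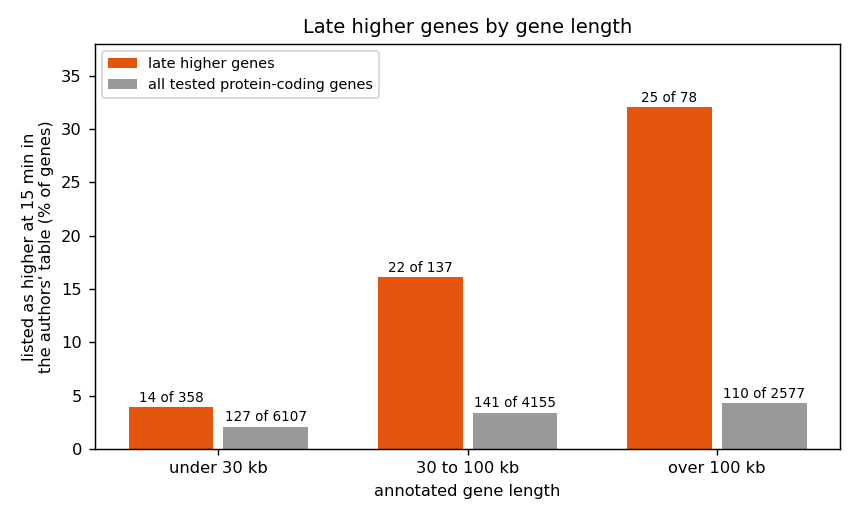
Percent of protein-coding genes listed as higher at 15 min than in untreated cells in the authors' deposited table, by gene length, for the late higher genes and for all tested genes. The bars of the late higher genes go from 3.91% under 30 kb to 32.1% over 100 kb, and those of all tested genes from 2.08% to 4.27%.

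The late lower genes were led by GREM1, a secreted antagonist of bone morphogenetic proteins (chromosome 15, 32717974 to 32745107). It had 135 and 121 counts at 15 min and 11 and 8 at 3 h, or 13.3 and 12.1 CPM against 1.17 and 0.977 CPM, with 11.8 and 11.4 CPM in untreated cells. The log2 fold change between the times was -3.54 ± 0.289 (adjusted p = 3.44e-13), and it was -2.26 and -2.93 after GSK591 and MS023. DIO2, which activates thyroid hormone, measured 14.5 and 15.8 CPM, 11.7 and 11.6 CPM, then 1.17 and 2.32 CPM. LUCAT1, a long noncoding RNA, measured 28.8 and 28.7 CPM, 25.8 and 23.3 CPM, then 5.63 and 3.66 CPM. KYNU, an enzyme of tryptophan breakdown, measured 84.3 and 75.5 CPM, 88.6 and 89.8 CPM, then 23.1 and 25.5 CPM. In these genes the untreated and 15 min libraries were close and the 3 h pair stood apart below, with log2 fold changes of -2.76, -2.38 and -1.88 between the times. An annotated antisense gene overlaps GREM1, and genes on the opposite strand overlap exons of DIO2 and KYNU.

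Several chemokines and cytokines fell between 15 min and 3 h. Over all tested genes 6.23% were called higher between the times and 4.53% lower, and the list counts below are to be read beside these shares. Of the 17 tested chemokines, cytokines and inflammatory enzymes on the list, 7 fell and none rose, and their median log2 fold change was -0.66 (all genes -0.00497; -0.83, with 5 called lower, with the total count as the only scaling). At 15 min against untreated cells the median of the list was -0.03. CXCL1, a neutrophil chemokine, had 44 and 61 counts in untreated cells, 75 and 66 at 15 min and 16 and 21 at 3 h, and fell between the times by 1.73 on the log2 scale (SE 0.258, adjusted p = 2.58e-06). LIF, an interleukin-6 family cytokine, measured 16.6 and 13.9 CPM, 16.2 and 14.3 CPM, then 7.55 and 8.18 CPM (adjusted p = 0.000163). Both genes had their 3 h libraries below the other 4, as did CXCL3, CXCL8 and CCL2. The called genes were CXCL1, CXCL2, CXCL3, CXCL8, CCL2, LIF and CSF1, and 3 of the 7 were called in all 4 fits that leave out 1 library. CXCL8 had 15 and 12 counts at 15 min and 3 and 3 at 3 h, and its adjusted p of 0.0198 became 0.0529 to 0.146 without 1 library. CXCL3 was lost without replicate 1 of Dex 3 h (adjusted p = 0.184) or of Dex 15 min (0.174), and CCL2, a monocyte chemokine, without replicate 2 of either (0.0529 and 0.0593). CXCL1, CXCL2 and CXCL3 are close paralogs, and how reads that match several genes were counted is not given in the sources used here. After GSK591 and MS023 the list had 9 and 8 genes called lower, with medians of -0.83 and -0.77.

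The promoters of these chemokines and of NFKBIA and TNFAIP3 are shown because the early and late courses of the 6 genes differ while their promoters share a motif. Each line gives the 250 bases before the RefSeq start (GRCh38.p14), 5′ to 3′ on the strand of the gene. Capitals mark matches to the NF-kB motif GGANTTTCC and the AP-1 motif TGANTCA on either strand. The windows are chr4:73869143-73869392 on the plus strand for CXCL1, chr4:74099196-74099445 on the minus strand for CXCL2, chr4:74038690-74038939 on the minus strand for CXCL3, chr4:73740319-73740568 on the plus strand for CXCL8, chr14:35404750-35404999 on the minus strand for NFKBIA and chr6:137867009-137867258 on the plus strand for TNFAIP3.
CXCL1: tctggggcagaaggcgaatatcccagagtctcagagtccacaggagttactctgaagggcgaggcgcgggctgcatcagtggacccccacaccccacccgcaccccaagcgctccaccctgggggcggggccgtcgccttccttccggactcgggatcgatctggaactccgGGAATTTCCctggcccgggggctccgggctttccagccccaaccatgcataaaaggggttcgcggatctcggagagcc
CXCL2: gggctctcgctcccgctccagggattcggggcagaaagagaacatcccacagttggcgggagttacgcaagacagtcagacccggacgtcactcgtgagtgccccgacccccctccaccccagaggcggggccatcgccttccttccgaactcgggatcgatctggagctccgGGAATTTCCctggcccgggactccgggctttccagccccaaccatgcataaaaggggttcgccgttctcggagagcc
CXCL3: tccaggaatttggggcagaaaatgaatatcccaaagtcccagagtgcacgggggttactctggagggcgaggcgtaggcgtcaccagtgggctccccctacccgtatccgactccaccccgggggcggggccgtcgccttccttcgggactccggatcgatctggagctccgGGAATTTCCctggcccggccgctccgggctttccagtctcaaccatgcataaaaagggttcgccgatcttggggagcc
CXCL8: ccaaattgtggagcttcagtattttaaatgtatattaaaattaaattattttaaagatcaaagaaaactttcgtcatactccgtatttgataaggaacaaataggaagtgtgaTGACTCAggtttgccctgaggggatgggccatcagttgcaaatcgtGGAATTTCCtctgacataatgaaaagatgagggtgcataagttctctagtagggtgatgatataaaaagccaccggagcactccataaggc
NFKBIA: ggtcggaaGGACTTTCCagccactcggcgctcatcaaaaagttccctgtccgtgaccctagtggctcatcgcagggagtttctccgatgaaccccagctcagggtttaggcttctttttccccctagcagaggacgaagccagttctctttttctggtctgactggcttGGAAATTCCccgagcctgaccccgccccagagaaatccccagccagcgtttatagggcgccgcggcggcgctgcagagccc
TNFAIP3: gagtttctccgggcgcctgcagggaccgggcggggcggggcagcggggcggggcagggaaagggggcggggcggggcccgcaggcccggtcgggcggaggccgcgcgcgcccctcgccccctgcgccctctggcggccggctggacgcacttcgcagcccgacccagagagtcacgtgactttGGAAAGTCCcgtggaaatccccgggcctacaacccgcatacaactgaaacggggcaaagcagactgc

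CXCL1, CXCL2 and CXCL3 carry GGAATTTCC with its first base 78, 77 and 78 bases before the start. CXCL8 carries it at 91 and TGACTCA at 137. NFKBIA has GGACTTTCC at 242 and GGAAATTCC, a match on the other strand, at 81, and TNFAIP3 has GGAAAGTCC, also on the other strand, at 67. The motif occurs in 1.47% of the 27305 promoter windows of that length in the table, in 7 of 11 windows (63.6%) found for the inflammatory list, and in 6 of 18 (33.3%) for the list of NF-kB subunits and regulators. These matches are a description of the letters and not of binding. Among these motif-bearing genes, CXCL2 and TNFAIP3 rose at 15 min and fell back, NFKBIA rose and held, and CXCL1, CXCL3 and CXCL8 were called only after 15 min, downwards.

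The NF-kB subunits and regulators moved unequally. Of 20 tested, 4 fell (NFKB2, RELB, TNFAIP3 and TNIP1) and 1 rose (NFKBID), with a median of -0.13; with the total count as the only scaling 3 fell and none rose. RELB, the partner of NFKB2 in the alternative pathway, measured 12.2 and 10.5 CPM, 9.58 and 7.80 CPM, then 2.66 and 3.05 CPM. Its 3 h libraries were the lowest, with -1.61 between the times (adjusted p = 1.12e-05), -1.35 after GSK591 and -0.32 after MS023. TNIP1 and NFKBID, both regulators of NF-kB, lost their calls without 1 library (adjusted p of 0.0641 to 0.17 for TNIP1 over all 4 libraries, and 0.101 and 0.0668 for NFKBID without replicate 2 of Dex 3 h or Dex 15 min).

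Among feedback genes of the glucocorticoid response, more rose between the times than fell. Of the 17 tested, 7 rose between the times (TSC22D3, FKBP5, DDIT4, IRAK3, RGS2, SOCS1 and ZFP36L2) and 2 fell (TNFAIP3 and TNIP1), with a median of 0.29. With the total count as the only scaling the median was 0.14, and 5 rose and 1 fell. SOCS1, a cytokine signalling inhibitor, measured 35.9 and 29.9 CPM in untreated cells, 36.3 and 29.1 CPM at 15 min and 82.6 and 106 CPM at 3 h (log2 fold change 1.52, adjusted p = 1.62e-05). RGS2, which shortens G protein signals, measured 9.90 and 10.2 CPM, 15.0 and 15.0 CPM, then 33.3 and 28.9 CPM. SOCS1 was flat until after 15 min, and RGS2 was already higher there. Of the 7 genes, 6 were called in all 4 fits without 1 library; IRAK3, an inhibitor of Toll-like receptor signalling, lost its call without Dex 3 h replicate 2 (adjusted p = 0.0784). Of the 23 tested transcription factors known to respond to glucocorticoids, 4 rose between the times (CEBPB, FOXO3, TFCP2L1 and ZBTB16) and 3 fell (ETS2, KLF6 and TSC22D2), with a median of 0.17, and 1 rose and 1 fell with the total count as the only scaling; FOXO3 and ZBTB16 were not called in any fit without 1 library. Of the 6 tested genes on the metallothionein list, which also holds MTF1 and SLC30A1, 1 rose, MT1X. It measured 12.9 and 14.2 CPM, 22.9 and 20.2 CPM, then 33.1 and 32.2 CPM. Its call was lost without Dex 15 min replicate 2 (log2 fold change 0.51).

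AP-1 subunits and other immediate early factors went both ways. Of 24 tested, 5 rose (JUNB, FOS, BTG2, CSRNP1 and IER5) and 6 fell (MAFK, FOSL1, JUN, MYC, IER3 and NR4A1), with a median of -0.26. Scaled by the total count alone, 2 rose and 4 fell. JUNB measured 67.5 and 70.5 CPM, 63.0 and 57.5 CPM, then 114 and 119 CPM (0.95, adjusted p = 1.92e-08). FOSL1 measured 27.6 and 26.3 CPM, 18.6 and 19.1 CPM, then 11.2 and 10.6 CPM (-0.79, adjusted p = 0.000364), and MAFK, a small Maf factor, measured 42.4 and 43.1 CPM, 34.6 and 34.7 CPM, then 15.2 and 14.4 CPM (-1.23, adjusted p = 5.1e-10). JUNB was highest and FOSL1 and MAFK lowest at 3 h, with no overlap between the times. Of the 5 genes that rose and the 6 that fell, 3 and 4 were called in all 4 fits without 1 library.

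Negative regulators of the MAP kinase pathway included 5 of 19 that fell (DUSP4, DUSP5, DUSP6, DUSP8 and ERRFI1) and 2 that rose (DUSP7 and SPRED3), with a median of -0.11; with the total count as the only scaling 4 fell and none rose. DUSP5, a phosphatase for ERK, measured 40.8 and 44.4 CPM, 65.3 and 47.2 CPM, then 21.2 and 27.1 CPM (-1.23, adjusted p = 8.86e-07). DUSP6 was lost without Dex 3 h replicate 2 (adjusted p = 0.0685) or Dex 15 min replicate 1 (0.0854), DUSP8 without replicate 1 of Dex 3 h (0.294) or Dex 15 min (0.158), and DUSP7 whichever library was left out (0.143 to 0.214), so that 2 of the 5 and 1 of the 2 were called in all 4 fits. Among 10 EGFR ligands and receptors, EREG and AREG, both ligands of the receptor, fell and none rose. EREG measured 13.3 and 9.97 CPM, 10.8 and 10.7 CPM, then 2.98 and 2.44 CPM (-1.97, adjusted p = 2.45e-08). AREG measured 5.23 and 3.93 CPM, 8.19 and 9.00 CPM, then 3.93 and 3.30 CPM, so that its 15 min libraries were the highest and its 3 h libraries were near the untreated ones.

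**Figure D5:**
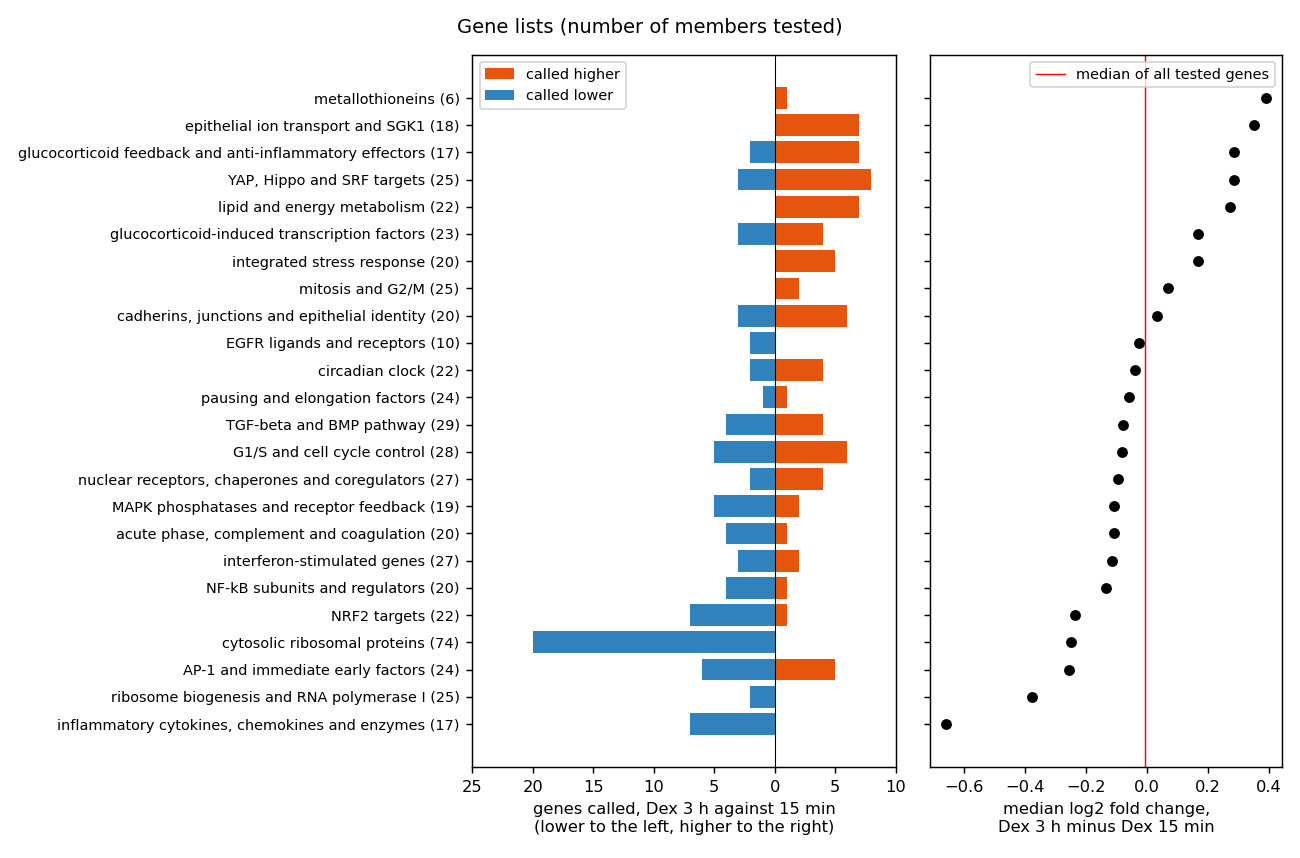
Number of genes called lower and higher at 3 h than at 15 min in each gene list (bars) and the median log2 fold change of the tested members. The inflammatory genes (7 lower, 0 higher) and the ribosomal proteins (20 lower, 0 higher) have calls on 1 side, as do ion transport and lipid metabolism (7 higher, 0 lower each), and the AP-1 and G1/S lists have calls on both.

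Genes of epithelial ion transport rose between the times in 7 of 18 cases (among them AQP3, NEDD4L, SCNN1B, SCNN1G, SGK1 and TSC22D3) and fell in none, with a median of 0.35. With the total count as the only scaling the median was 0.19 and 2 were called higher. AQP3, a water and glycerol channel, had 3 and 1 counts in untreated cells, 0 and 2 at 15 min and 30 and 26 at 3 h. SCNN1G, a subunit of the epithelial sodium channel, had 2 and 0 counts at 15 min and 9 and 10 at 3 h, and its call was lost in 3 of the 4 fits that leave out 1 library (adjusted p = 0.0771 to 0.302). SCNN1B, another subunit, had 2 and 9 counts at 15 min and 26 and 11 at 3 h, and was lost without replicate 1 of Dex 3 h (0.327) or of Dex 15 min (0.273).

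Lipid and energy genes rose in 7 of 22 cases (CIDEC, FASN, GLUL, PDK4, PNPLA2, ACSL1 and PCK2) and fell in none, with a median of 0.27. With the total count as the only scaling the median was 0.11 and 1 gene was called higher. PDK4, which restrains the use of glucose in mitochondria, measured 4.34 and 5.54 CPM, 13.0 and 13.6 CPM, then 18.9 and 18.2 CPM, most of it before 15 min, and its second step was not called in any of the 4 fits without 1 library (adjusted p = 0.122 to 0.191). ACSL1 and PCK2 were lost without 1 library as well (0.0662 to 0.301 in 3 fits, and 0.22 and 0.175 in 2), as was PNPLA2, and 3 of the 7 genes were called in all 4 fits.

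Actin, Hippo and serum response factor targets included 8 of 25 that rose (ACTB, ACTG1, AJUBA, AMOTL2, CNN2, FLNA, VCL and ZYX) and 3 that fell (ACTA2, AMOTL1 and CCN2), with a median of 0.29. With the total count as the only scaling the median was 0.13, and 2 rose and 3 fell. ACTB, cytoplasmic actin, measured 127 and 128 CPM, 146 and 136 CPM, then 219 and 273 CPM (0.80, adjusted p = 8.42e-07). ZYX, a focal adhesion protein, measured 22.7 and 23.7 CPM, 17.7 and 18.2 CPM, then 30.6 and 31.5 CPM, so that its 15 min libraries were the lowest. Of these 8 genes, 7 were called in all 4 fits without 1 library. Of 20 cadherin, junction and keratin genes, 6 rose (CDH16, CLDN7, KRT7, KRT8, KRT18 and MUC1) and 3 fell (CLDN1, CLDN2 and KRT80), and the median of 0.03 became -0.11 with the total count as the only scaling, with 2 called higher and 3 lower. MUC1, an epithelial mucin, measured 3.78 and 3.32 CPM, 4.34 and 4.70 CPM, then 12.5 and 11.0 CPM. CLDN2, a pore-forming claudin, measured 7.45 and 6.45 CPM, 7.21 and 7.00 CPM, then 2.44 and 2.32 CPM. The claudins moved apart: CLDN7 rose (1.02) and CLDN2 and CLDN1 fell (-1.57 and -0.88), the last of these losing its call without replicate 2 of Dex 3 h (adjusted p = 0.18) or of Dex 15 min (0.1).

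In the TGF-beta and BMP pathway 4 of 29 rose (SMAD7, TGFB1, TGFBR1 and TGFBR3) and 4 fell (among them GREM1, SMAD3 and TGFB2), with a median of -0.08. Scaled by the total count alone, none rose and 3 fell. SMAD3, which carries the TGF-beta signal into the nucleus, measured 90.5 and 82.5 CPM, 81.2 and 81.0 CPM, then 37.9 and 35.8 CPM (-1.14, adjusted p = 1.29e-10). TGFB2, a ligand, measured 12.9 and 14.7 CPM, 12.0 and 11.8 CPM, then 4.15 and 4.27 CPM (-1.50). Both were level until after 15 min and then the 3 h pair was below the other 4 libraries. TGFBR3 was not called in any fit without 1 library and TGFBR1 in only 1 of the 4, and of the 4 that rose and the 4 that fell, 1 and 3 were called in all 4 fits.

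Targets of NRF2, the regulator of antioxidant genes that is constitutively active in A549, fell in 7 of 22 cases and rose in 1 (FTL), with a median of -0.24; with the total count as the only scaling 6 fell and none rose. OSGIN1, an oxidative stress-induced growth inhibitor, measured 61.6 and 56.5 CPM, 53.1 and 49.4 CPM, then 12.1 and 12.7 CPM (-2.05 ± 0.122, adjusted p = 5.13e-18; -2.0 and -2.39 after GSK591 and MS023). TXNRD1, thioredoxin reductase, measured 274 and 233 CPM, 223 and 297 CPM, then 105 and 102 CPM, and its adjusted p of 0.00432 became 0.059 without Dex 15 min replicate 2. ABCC2, an export pump, measured 97.1 and 84.7 CPM, 89.0 and 99.3 CPM, then 43.1 and 47.7 CPM. The other genes that fell were GCLC, GCLM, HMOX1 and SLC7A11, of which GCLM was lost without Dex 3 h replicate 1 (0.0724), HMOX1 without Dex 15 min replicate 2 (0.0668) and SLC7A11 in 3 fits (0.056 to 0.172). After GSK591 and MS023, 11 and 9 of the 22 were called lower and none higher.

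Cytosolic ribosomal protein genes lay slightly lower as a group. Of 74 tested, 20 fell and none rose, 72 were below 0, and the median was -0.25; with the total count as the only scaling it was -0.40, against -0.16 for all genes, and 4 fell. RPS16 measured 126 and 129 CPM, 140 and 141 CPM, then 80.3 and 84.3 CPM (-0.77, adjusted p = 9.14e-08). RPS23 measured 88.0 and 95.1 CPM, 100 and 94.2 CPM, then 60.5 and 58.4 CPM. Of the 20 genes, 5 were called in all 4 fits without 1 library, and ribosomal protein genes have many processed copies with near-identical sequence. After GSK591 and MS023, 32 and 35 of the 74 were called lower. Of 25 genes of ribosome biogenesis 2 fell and none rose (8% called, against 10.8% of all tested genes), and the median was -0.38.

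Cell cycle genes of G1 and S phase moved in both directions. Of 28 tested, 6 rose (CDKN1A, CDKN1B, CDKN1C, CDKN2D, GADD45A and GADD45B, all of them known as inhibitors of cell cycle progression) and 5 fell (CCND3, CDK6, MCM5, MCM7 and MYC), with a median of -0.08; with the total count as the only scaling 1 rose and 3 fell. CDK6, a G1 kinase, measured 20.1 and 23.0 CPM, 22.5 and 20.6 CPM, then 12.2 and 15.1 CPM (-0.66, adjusted p = 0.00128; 0.0844 without Dex 3 h replicate 1). Of the 6 that rose and the 5 that fell, 2 and 1 were called in all 4 fits without 1 library. Of 25 mitotic genes 2 rose and none fell (8% called, against 10.8% of all tested genes), and these calls did not hold in every fit without 1 library.

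In the integrated stress response 5 of 20 rose (CEBPB, TRIB3, SESN2, PPP1R15A and NUPR1) with a median of 0.17, and none of these was called with the total count as the only scaling. PPP1R15A, which reverses the translational arrest of that response, had fallen at 15 min (53.6 and 54.6 CPM to 35.4 and 37.9 CPM) and measured 46.6 and 57.4 CPM at 3 h; its second step lost the call without Dex 3 h replicate 2 (adjusted p = 0.152) or Dex 15 min replicate 1 (0.0545). Clock genes numbered 4 higher and 2 lower of 22 (median -0.04), none of them called in all 4 fits without 1 library or when scaled by the total count alone. Nuclear receptors and their chaperones numbered 4 and 2 of 27 (-0.09), acute phase genes 1 and 4 of 20 (-0.11), interferon-stimulated genes 2 and 3 of 27 (-0.11). The shares called in these lists were 22.2%, 25% and 18.5%, against 10.8% of all tested genes. Of 24 pausing and elongation factors, 1 rose and 1 fell (8.33%, below the share of all genes), with a median of -0.06. The gene that rose was HEXIM1, which holds P-TEFb inactive, at 95.1 and 86.6 CPM, 72.0 and 71.0 CPM, then 110 and 124 CPM (0.71, adjusted p = 7.45e-06), so that its 15 min libraries were the lowest of the 6.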

How the data were processed

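The authors deposited a table of read counts per gene for all 30 libraries; per the submitters' processing notes featureCounts (Subread 2.0.1) and hg38 were used, and the aligner and strand setting are not given in the sources used here. Gene positions come from GENCODE 29 and promoters from RefSeq (GRCh38.p14). The authors' deposited tables of log2 fold changes and adjusted p-values against untreated cells were used only where named. From the counts, genes passing filterByExpr (minimum count 10, total 15) were fitted in all 15 groups with TMM scaling and a robust quasi-likelihood test in edgeR 4.0.16 (R 4.3.3; limma 3.58.1; 15 residual degrees of freedom; biological coefficient of variation 10.6%), with Benjamini-Hochberg adjustment over all genes tested and a threshold of 0.05; contrasts between groups gave the fold changes with their standard errors. Genes left out held 0.232% of counts. CPM values are counts divided by the TMM-scaled library total. The fitting script was tested on simulated data. Members and gene lists were chosen with earlier results of these data known. Some genes, such as TSC22D3, CEBPB, TNFAIP3 and TNIP1, belong to several lists, so the list counts are not independent of each other. Named are genes of at least 5 CPM on average: 8 early higher and 4 early lower genes each of the faded, held and grown classes and 10 late genes each way, by largest change, plus FKBP5, TSC22D3, PER1, KLF9, DUSP1, NFKBIA, SGK1, NR3C1 and up to 6 members of each list; other called list members are named without values, and a few genes are not reported here. For the faded, grown and late genes picked by largest change, both 3 h libraries had to lie beyond both 15 min libraries. Their lack of overlap between the times was thus set by this choice. The labels do not say that replicates come from separate cultures, so p-values measure a spread between libraries that may be technical. That spread was estimated over all 15 groups and not over the compared libraries alone. Pearson's r between the replicates of a group ranged from 0.926 to 0.985 over these groups. Alternatives tried were DESeq2 size factors, DESeq2 1.42.0, the total count as the only scaling, no low-count filter, no mitochondrial or ribosomal RNA genes, only the groups compared, a replicate block, a 1.5-fold minimum for classes, and leaving out each library.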

Additional observations from a re-analysis of the deposited data

Results flagged for a closer look

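Each gene below stands out because its change from Dex 15 min to Dex 3 h differed between cells without inhibitor and pretreated cells, by a test of that difference (edgeR's interaction contrast, Benjamini-Hochberg adjustment over all genes). The 2 contrasts that are compared have no libraries in common.

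With GSK591, CCN1, a matricellular Hippo target, was level without inhibitor (23.5 and 27.7 CPM at 15 min, 27.1 and 29.9 CPM at 3 h) and fell after it (49.3 and 49.6 CPM to 27.5 and 22.7 CPM), a difference of -1.13 ± 0.17 (log2, SE; adjusted p = 0.000243). PHLDA1 fell without inhibitor (112 and 106 CPM to 64.6 and 64.7 CPM) and not after it (102 and 84.1 CPM to 111 and 116 CPM), a difference of 1.04 (adjusted p = 0.000225). ADAMTS7, a secreted metalloprotease, rose from 8.09 and 8.90 CPM to 36 and 34.7 CPM without inhibitor and from 21.9 and 21.6 CPM to 42.7 and 45.3 CPM after it, a difference of -1.04 (adjusted p = 0.0113). The others were the histone gene H4C2 at -1.14 (adjusted p = 0.00846), TRIM7 at 1.04 (0.0147), GLRX at -0.91 (0.0181) and FEN1 at 0.85 (0.0217).

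With MS023, CITED2, a transcriptional coregulator, was level without inhibitor (39.0 and 35.8 CPM, then 35.2 and 40.9 CPM) and fell after it (58.9 and 56.8 CPM to 28.4 and 30.9 CPM), a difference of -0.99 ± 0.168 (adjusted p = 0.00888). NFKB2 fell without inhibitor (23.3 and 26.2 CPM to 10.5 and 11.4 CPM) and was level after it (14.5 and 12.9 CPM, then 12.7 and 12.0 CPM), a difference of 1.03 (adjusted p = 0.0352). SERTAD3 recovered from 10.3 and 12.1 CPM to 25.7 and 25.4 CPM without inhibitor and measured 18.4 and 16.4 CPM, then 20.9 and 20.8 CPM after it, a difference of -0.93 (adjusted p = 0.0352). PTGS2, the inducible cyclooxygenase, was at 4.05 and 5.30 CPM, then 5.53 and 6.23 CPM without inhibitor and at 10.3 and 10.1 CPM, then 5.20 and 3.62 CPM after it, a difference of -1.53 (adjusted p = 0.0352). The others were B3GNT7 at -1.39 (0.039), COG1 at 0.92, VEGFA at 0.72 and the long noncoding RNA AC048341.1 at 0.78 (0.0352 each). The number of such genes depends strongly on the processing, as given in the next part.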

How the results depend on the processing

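With the total count as the only scaling, 807 genes were called between the times (278 higher, 529 lower), 261 at 15 min (260 higher, 1 lower) and 1259 at 3 h against untreated cells (1031 higher, 228 lower), and 1676 (1339 higher, 337 lower) and 1239 between the times after GSK591 and MS023. That scaling left 28 faded (23 of them among the 61), 18 grown, 228 late higher and 184 late lower genes. DESeq2 called 1330 genes between the times, 1449 at 3 h and 1960 and 1563 after GSK591 and MS023, and left 36 faded, 42 grown, 470 late higher and 342 late lower genes. A fold of at least 1.5 left 28 faded and 35 grown genes. Fitting only the groups compared gave 2093 genes after GSK591.

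Leaving out 1 library gave 1182 to 1449 genes between the times, 120 to 167 at 15 min, 1355 to 1664 at 3 h, 1414 to 2738 after GSK591 and 1708 to 1862 after MS023. The classes then held 25 to 44 faded, 19 to 47 grown, 58 to 133 held, 485 to 580 late higher and 312 to 409 late lower genes. The lone library of a group is then assumed to vary like the other groups. Between the times, the sign turned for SLC30A1 without replicate 1 of either group (log2 fold change -0.24 to 0.17 over the 4 fits). It also turned for MKI67 without Dex 15 min replicate 2 (-0.75 to 0.043), while BST2 went to 0 without that library (-4.70 to 0). For named genes, 1814 values kept direction and side of the threshold, 249 lost the call, 9 gained it and 4 reversed or, for BST2, went to 0.

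The interaction counts were the least stable. For GSK591, 7 genes became 18 with DESeq2 size factors, 0 with the total count as the only scaling (1973 at an unadjusted p under 0.05; DESeq2 gave 9), 45 without the filter, 21 without mitochondrial and ribosomal RNA genes, 3 with only the groups compared, 29 with the replicate block and 2 to 30 without 1 library. For MS023, 8 became 14, 0 (1605 unadjusted), 48, 18, 21, 24 and 0 to 19 in the same order, and 15 with DESeq2; the settings at 0 without 1 library had 1425 to 1681 genes at an unadjusted p under 0.05.

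With the replicate number as a block, 2514 genes were called between the times, 310 at 15 min and 2471 at 3 h. The numbers are shared labels only: the deviations of same-numbered Dex 15 min and Dex 3 h libraries correlated at 0.0146, and 22 of 105 pairs of groups exceeded 0.1 (range -0.457 to 0.501). The cause of these shifts was not tested.

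With 2 libraries per group and about 10.6% variation between them, small changes of weakly transcribed genes were not detectable at this depth.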

Other observations

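Late genes often lay near each other. Of the 803 late higher genes, 356 (44.3%) had another, non-overlapping late higher gene within 100 kb, against 16.9% of all 22919 tested genes that had a late higher gene that near. For the 610 late lower genes the figures were 127 (20.8%) and 9.51%. The median number of other tested genes within 100 kb was 7 for late higher genes, 4 for late lower genes and 5 for all tested genes, and the part of this density in the higher share was not tested. On chromosome 16, CDH16 and RRAD lie 2.69 kb apart on the same strand, and the grown gene CES4A (1.56 and 1.11 CPM in untreated cells, 4.05 and 3.90 CPM at 15 min, 15.1 and 11.1 CPM at 3 h) lies 62.9 kb from RRAD. The authors' deposited table for 15 min does not call CES4A (log2 fold change 0.883, adjusted p = 0.0522).

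POU5F1, a pluripotency factor with many processed copies, was among the held genes, at 5.23 and 5.74 CPM in untreated cells, 21.6 and 20.1 CPM at 15 min and 20.4 and 20.9 CPM at 3 h. KLF9, a zinc-finger repressor, measured 8.34 and 6.55 CPM, 20.3 and 16.5 CPM, then 17.6 and 23.8 CPM. IRS2, an insulin receptor substrate, measured 39.7 and 39.7 CPM, 101 and 106 CPM, then 78.8 and 85.7 CPM, with a change between the times of -0.33 that missed the threshold (adjusted p = 0.0725).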
